A study of Mus musculus with 3 samples.

Results

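Mitotic progenitor cells are here the cells of these cultures in which at least 7 of 8 chosen transcripts of the division machinery were detected. They were chosen from single-cell RNA sequencing of mouse neural progenitors, labelled as neural stem cells of postnatal day 1 mice, grown as neurospheres with epidermal growth factor at 20 ng/mL, plated at 50000 cells on poly-D-lysine coated dishes or devices and kept there for 16 h. A cell was a droplet barcode holding 3000 or more UMIs (unique molecules counted) from 500 or more genes, with mitochondrial UMIs at 20% or less. A cell was called mitotic when at least 7 of 8 genes, Cdc20, Ccnb1, Cenpa, Cenpe, Aspm, Plk1, Ube2c and Hmmr, each had at least 1 UMI. This took 3859 of 17920 cells. The 3 libraries were a control (CTRL), cells given bulk electroporation (BEP) in a Lonza 4D Nucleofector with program DS137, and cells given localized electroporation (LEP) at 20 V and 400 pulses on the device they lay on, and all were collected 4 h after treatment. No cargo is named in the labels, and no strain, sex or number of animals. Where the control cells lay is not in the labels, and in LEP the effects of the device and of the pulses cannot be told apart. With 1 library a group, differences between libraries have no replicate behind them and were not tested. Intervals given here are exact 95% intervals that cover counting error only, and UMIs of cells in 1 library are not replicates.

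A cell that prepares to divide accumulates cyclin B and its partner kinase Cdk1, whose activity drives entry into mitosis together with Plk1 and the Aurora kinases. Kinetochores then tie the centromeres to spindle microtubules, the spindle checkpoint delays separation until every chromosome is attached, and the anaphase-promoting complex ends mitosis by marking cyclin B and securin for destruction. The transcripts of these proteins build up in G2, before the chromosomes condense, so a transcript rule takes cells of G2 and mitosis together and does not show cells in the act of division. In the postnatal brain, neural progenitors divide near the ventricles, and epidermal growth factor keeps them dividing in culture.

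Genes of this programme are switched on late in the cycle through short promoter elements. The CHR (cell cycle genes homology region, TTTGAA) is bound by the MuvB complex and CCAAT boxes by the factor NF-Y. Promoter windows came from RefSeq on GRCm38.p6 and run from 250 bases before to 50 bases after each gene's start, and both strands were searched. TTTGAA lay in the windows of 6 of the 8 rule genes and CCAAT in those of 8 of 8, against 20.2% and 41.1% of the 27025 genes with a window. The windows of Ccnb1 and Cenpe held CCAAT and no TTTGAA. Of 91 other mitosis genes in 5 lists, 75 had a window, and 45 of them (60.0%) held TTTGAA and 49 (65.3%) held CCAAT. Of 35 DNA replication genes, 28 had a window, and 4 of them (14.3%) held TTTGAA. Such a match is a run of letters and not a shown binding site. The promoters of 3 mitosis genes are printed as the last 200 bases before the start, 5′ to 3′ on the gene's strand, with each TTTGAA and CCAAT of either strand in capitals. Cdc20 is at chr4:118437344-118437543 on the minus strand, Ube2c at chr2:164769729-164769928 on the plus strand and Cdk1 at chr10:69352913-69353112 on the minus strand. In Ube2c, 2 CCAAT matches of opposite strands overlap and share their capitals.
Cdc20: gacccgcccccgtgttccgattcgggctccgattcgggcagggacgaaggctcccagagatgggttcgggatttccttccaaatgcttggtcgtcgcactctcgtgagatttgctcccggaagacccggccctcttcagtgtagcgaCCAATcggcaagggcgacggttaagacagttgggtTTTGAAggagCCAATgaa
Ube2c: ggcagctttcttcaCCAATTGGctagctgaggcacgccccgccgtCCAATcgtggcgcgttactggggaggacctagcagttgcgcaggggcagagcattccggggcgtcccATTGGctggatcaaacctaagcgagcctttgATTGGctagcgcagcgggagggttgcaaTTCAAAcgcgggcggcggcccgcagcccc
Cdk1: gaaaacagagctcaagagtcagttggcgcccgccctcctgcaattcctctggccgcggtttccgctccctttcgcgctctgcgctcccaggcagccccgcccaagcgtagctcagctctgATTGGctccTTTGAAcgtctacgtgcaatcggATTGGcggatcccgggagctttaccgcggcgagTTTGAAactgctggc
In Cdc20 the TTTGAA began 18 bases before the start, with CCAAT boxes beginning 53 and 8 bases before it. In Ube2c the TTTGAA, on the opposite strand, began 29 bases before the start. Cdk1 held 2 copies, beginning 71 and 15 bases before the start.

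The promoters of 2 interferon response genes, among those that differed most between libraries inside mitotic cells, are shown as well. The motif is GAAA followed, after any 2 bases, by a second GAAA, the core of the interferon-stimulated response element. It lay in windows of 3.99% of all genes and in those of 10 of 15 interferon response genes with a window, from a list of 21, and in none of the 8 rule genes. Isg15 is at chr4:156200819-156201018 on the minus strand, and Rsad2 at chr12:26456453-26456652 on the minus strand. Matches are in capitals, and the 3 matches in Isg15 overlap.
Isg15: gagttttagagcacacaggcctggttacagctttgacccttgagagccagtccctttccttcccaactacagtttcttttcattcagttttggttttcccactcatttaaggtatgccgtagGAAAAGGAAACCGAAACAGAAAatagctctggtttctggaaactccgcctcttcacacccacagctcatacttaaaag
Rsad2: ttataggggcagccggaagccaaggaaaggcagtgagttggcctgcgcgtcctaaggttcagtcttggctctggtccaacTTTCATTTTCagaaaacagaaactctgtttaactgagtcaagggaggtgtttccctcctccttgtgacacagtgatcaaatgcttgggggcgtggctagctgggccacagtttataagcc

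Levels are given as CPM, a gene's UMIs per 1000000 UMIs of the same cells. The libraries held 74429007 UMIs in CTRL, 85743257 in BEP and 83803032 in LEP, and their 6091, 5531 and 6298 cells had medians of 9542, 11644 and 10980.5 UMIs. UMIs outside cells made up 17.0%, 9.62% and 9.10% of the libraries, and 22 cell barcodes occurred in more than 1 library. Defining markers of microglia and macrophages, of mural cells and fibroblasts and of erythroid cells summed to at most 1.81 CPM in mitotic cells of each library, and endothelial markers to at most 2.37 CPM, with Cldn5 and Cdh5 at 0.

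There were 1169 mitotic cells in CTRL, 1539 in BEP and 1151 in LEP. They were 19.2% of cells in CTRL (18.2 to 20.2), 27.8% in BEP (26.6 to 29.0) and 18.3% in LEP (17.3 to 19.3). BEP had the highest share, and the shares of CTRL and LEP lay within each other's counting error. All 8 genes were found in 699, 1009 and 776 of them, so full marker sets were the larger group in each library. Cells just inside the rule, with 7 genes, numbered 470, 530 and 375, and cells just outside it, with 6, numbered 421, 428 and 321. No barcode outside the cell filter carried 7 of the genes, although 1766, 1591 and 1795 barcodes held 500 UMIs or more but under 3000. Cells with none of the genes were the largest class in each library (1611, 1315 and 2017 cells), and classes of 3 to 5 genes held 1285, 1021 and 1027 cells together. In CTRL the classes of 3 to 7 genes were of similar size, at 412 to 470 cells each.

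**Figure D1:**
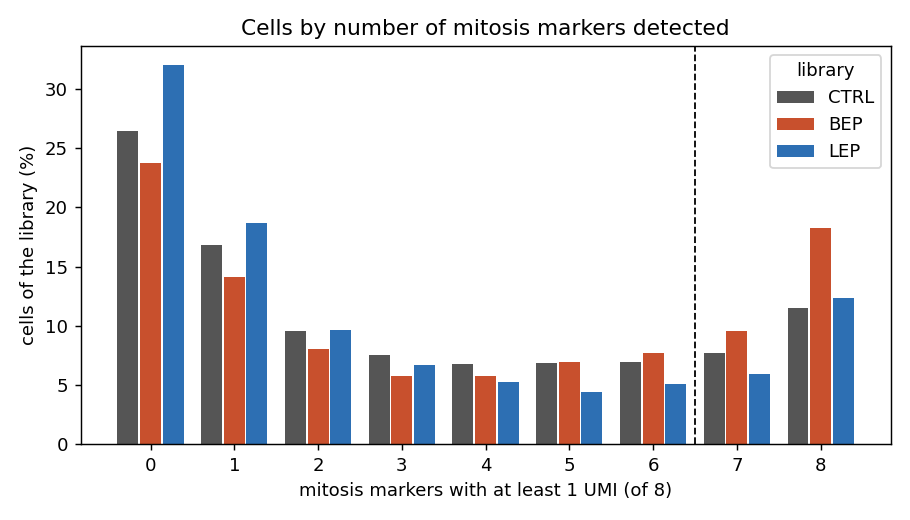
Bars give the percentage of each library's cells (vertical axis) with 0 to 8 of the mitosis markers detected (horizontal axis), and the dashed line marks the rule of at least 7. Cells with 8 markers were 11.5% of CTRL, 18.2% of BEP and 12.3% of LEP.

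The share was higher among cells with more UMIs. Mitotic cells had medians of 13189, 16629 and 17101 UMIs in CTRL, BEP and LEP, against 8945, 10477 and 10285 in the other cells. A median mitotic cell held 3535, 4115 and 4188 genes. Mitochondrial UMIs made up medians of 3.24%, 3.77% and 3.06% in mitotic and 3.48%, 4.28% and 3.50% in other cells. Among cells of 3000 to 5000 UMIs 2.02%, 2.44% and 1.77% were mitotic, and among those of at least 20000 UMIs 59.2%, 63.1% and 62.7%. A rule on detected genes is met more easily by a cell with more UMIs, and the source of the difference in UMIs was not tested. Cells over 25000 UMIs made up 4.11% of mitotic cells in CTRL, 23.2% in BEP and 10.2% in LEP, against 0.406%, 4.41% and 1.09% of other cells. Droplets with more than 1 cell were not removed, and their part in these deep barcodes was not tested.

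At an equal depth of 8000 UMIs per cell, a setting chosen after seeing the data, BEP stood closer to CTRL and LEP farther below CTRL. With each cell thinned to 8000 UMIs and the rule applied again, 17.3% of CTRL (16.1 to 18.5), 19.0% of BEP (17.8 to 20.2) and 13.2% of LEP cells (12.2 to 14.1) were mitotic. At 8000 UMIs the intervals of BEP and CTRL overlapped, while LEP lay below both. Thinning left out 2057, 1222 and 1368 shallower cells. In the bin of 5000 to 8000 UMIs the shares were 8.63%, 8.79% and 3.42%, and in the bin of 8000 to 12000 UMIs they were 14.0%, 17.1% and 6.91%. Thinned to 3000 UMIs, which left out no cell, the rule kept 2.40% (2.03 to 2.81), 2.53% (2.13 to 2.98) and 2.00% (1.67 to 2.38). At 3000 UMIs the intervals of all libraries overlapped.

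**Figure D2:**
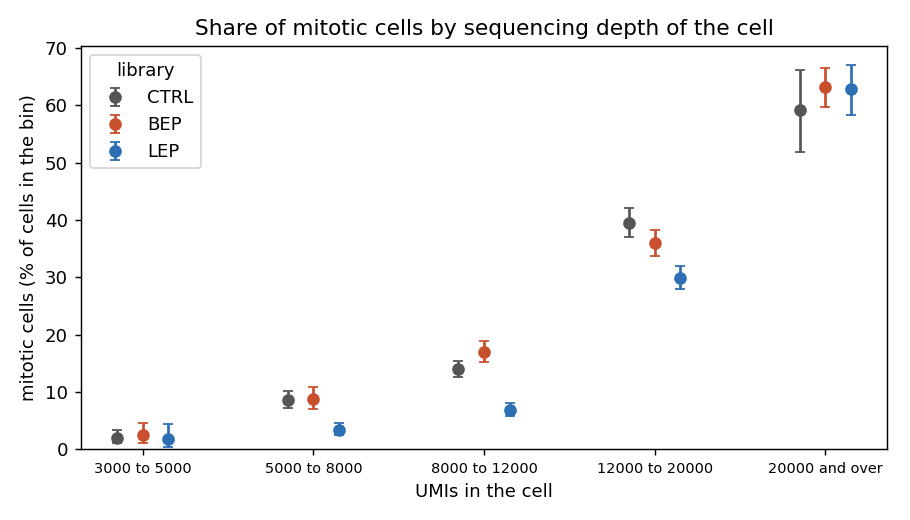
Points give the percentage of cells that were mitotic (vertical axis) in 5 bins of UMIs per cell (horizontal axis) for each library, with exact 95% binomial intervals. In the bins from 5000 to 20000 UMIs LEP lay lowest, and at 20000 and over the intervals of the 3 libraries overlapped.

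The 8 rule genes act at successive steps of division, and their levels are a description of the choice. Ccnb1, cyclin B1, lies at chr13:100778650-100786570, and Plk1, a mitotic kinase, at chr7:122159439-122169873. Cenpa, the centromeric variant of histone H3, lies at chr5:30666777-30674830, and Cenpe, a kinetochore motor, at chr3:135212537-135273611. Aspm, a spindle pole protein, lies at chr1:139454772-139494091, and Hmmr, a spindle assembly protein, at chr11:40701395-40733422. Cdc20, which activates the anaphase-promoting complex, lies at chr4:118432901-118437352, and Ube2c, its ubiquitin-conjugating enzyme, at chr2:164769898-164778822. These are whole protein-coding genes in GENCODE vM21 on GRCm38.

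Ube2c stood at 891 CPM (877 to 906) in CTRL, 768 (759 to 778) in BEP and 852 (839 to 865) in LEP mitotic cells, against 142, 135 and 89.4 CPM in other cells. Plk1 stood at 165, 154 and 165 CPM in mitotic cells and at 16.0, 19.7 and 14.7 CPM in other cells. Cdc20 stood at 282, 192 and 228 CPM against 51.7, 35.5 and 32.4 CPM. Each rule gene was lower in BEP than in CTRL mitotic cells, with a median log2 ratio of -0.31 over the 8, and this median was -0.02 with every cell thinned to 8000 UMIs. Among mitotic cells with 7 genes, the missing gene was most often Plk1 in CTRL (151 of 470) and Aspm in BEP (153 of 530) and LEP (118 of 375). It was Ube2c in 4, 4 and 2 cells. From cells with 6 to cells with 7 and 8 genes, Ube2c went from 469 to 686 and 1012 CPM in CTRL and from 377 to 579.7 and 964 CPM in LEP. Free RNA, measured in barcodes of 10 to 100 UMIs, held Ube2c at 196, 268 and 254 CPM and Plk1 at 65.5, 52.4 and 36.5 CPM, above the level in other cells.

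The genes that led mitotic over other cells, beyond those of the rule, included many of the spindle and kinetochore. Cells were chosen by the same transcripts, so the ratios are a description. Cenpf, a kinetochore protein of G2 and mitosis at chr1:189640606-189688086, stood at 783, 602 and 702 CPM in CTRL, BEP and LEP mitotic cells and at 102, 99.7 and 69.5 CPM in the others, log2 ratios of 2.93, 2.58 and 3.32. Aurka, the Aurora kinase of spindle poles, stood at 100.4, 94.4 and 100.6 CPM against 14.9, 17.7 and 11.5 CPM. Prc1, which bundles microtubules of the central spindle, stood at 561, 492 and 541 CPM against 87.9, 101 and 76.2 CPM. Every one of these was at least 4-fold higher in each library. Tpx2, which activates Aurka, had log2 ratios of 2.22, 2.04 and 2.47, and Bub1b, a checkpoint kinase, 2.20, 2.02 and 2.54. The motor genes Kif2c, Kif20a, Kif20b and Kif23, the kinetochore scaffold Knl1, the centromere guardian Sgo2a and the microtubule binder Nusap1 were also among the 20 leading genes. Ratios of at least 2-fold higher were found for 132 of 5634 genes (2.34%) in CTRL, 117 (2.08%) in BEP and 138 (2.45%) in LEP, and for 115 (2.04%) in all 3. At least 2-fold lower were 2 (0.0355%), 1 (0.0177%) and 3 genes (0.0532%). These counts take genes of at least 20 CPM in the mean, and lists below take genes of at least 5 CPM.

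By role, 5 mitosis lists had medians of more than 2-fold above other cells in each library, and the exit genes did not. The median log2 ratios of the 13 genes of the chromosomal passenger complex and cytokinesis were 1.96, 1.85 and 2.27, and all 13 were at least 2-fold higher in each library. The 25 kinetochore and checkpoint genes had medians of 1.40, 1.51 and 1.77, the 22 measured of 23 spindle motors and microtubule proteins 1.94, 1.60 and 2.07, the 19 entry kinases, cyclins and factors 1.80, 1.61 and 1.94, and the 11 condensation genes 1.35, 1.31 and 1.59. The 17 genes of the anaphase-promoting complex and mitotic exit had medians of 0.43, 0.31 and 0.42. Over all genes tested the share above 0 was 61.4%, 51.7% and 47.5%, and the share below 0 was 38.6%, 48.3% and 52.5%. With each cell thinned to 8000 UMIs the passenger complex medians were 1.83, 1.65 and 2.01. Within a list members differed. Cdk1, the kinase that cyclin B activates, had log2 ratios of 1.82, 1.79 and 2.09, while Mybl2, the B-Myb factor that acts from S phase on, had -0.17, 0.64 and 0.28.

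Few genes were at least 2-fold lower in mitotic cells, and 0 of the 5634 genes were so in all 3 libraries. The genes named here were among the lowest, but none of them was 2-fold lower in every library. Mxd4, a repressor of the Myc network found in cells leaving the cycle, stood at 28.6, 43.3 and 29.3 CPM against 55.0, 86.9 and 65.6 CPM in other cells. Hbegf, a ligand of the epidermal growth factor receptor, stood at 66.3, 79.3 and 44.7 CPM against 136, 134 and 102 CPM. Apoe, a lipid carrier of astrocytes, stood at 81.9, 122 and 206 CPM against 149, 203 and 604 CPM. Cdkn2a, which encodes inhibitors of the G1 kinases and of Mdm2, had log2 ratios of -0.41, -0.36 and -0.34.

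Cells with fewer of the 8 genes differed from the mitotic cells in their S-phase transcripts. The summed level of 35 DNA replication genes was highest at 4 genes in CTRL (2727 CPM) and BEP (2822 CPM) and at 5 in LEP (2917 CPM), and at 8 genes it was 1728, 2196 and 1917 CPM. Replication-dependent histones, whose transcripts are made in S phase, summed to 17733 CPM at 4 and 8637 CPM at 8 genes in CTRL. In BEP they summed to 12211 and 6229 CPM, and in LEP, where the highest sum was at 6 genes, to 15406 and 9606 CPM. Between the 7 and 8 gene classes, both inside the rule, histones went from 13186 to 8637 CPM in CTRL, from 9354 to 6229 in BEP and from 14717 to 9606 in LEP. Ccne2, the cyclin E of the G1 to S transition, stood at 17.98, 36.5 and 38.3 CPM at 4 genes and at 2.96, 10.4 and 7.54 CPM at 8. Top2a, the topoisomerase that untangles sister chromatids, stood at 336, 281 and 221 CPM at 4 genes and at 807, 602 and 579 CPM at 8. Depth rose along the same axis, with medians of 9840, 11387 and 12532 UMIs at 4 genes and 13772, 17528 and 17903.5 at 8. Over mitotic cells as a whole the replication list had a median log2 ratio to other cells of 0.02 in CTRL, 0.42 in BEP and 0.16 in LEP, and with cells thinned to 8000 UMIs of -0.19, 0.03 and -0.15.

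**Figure D3:**
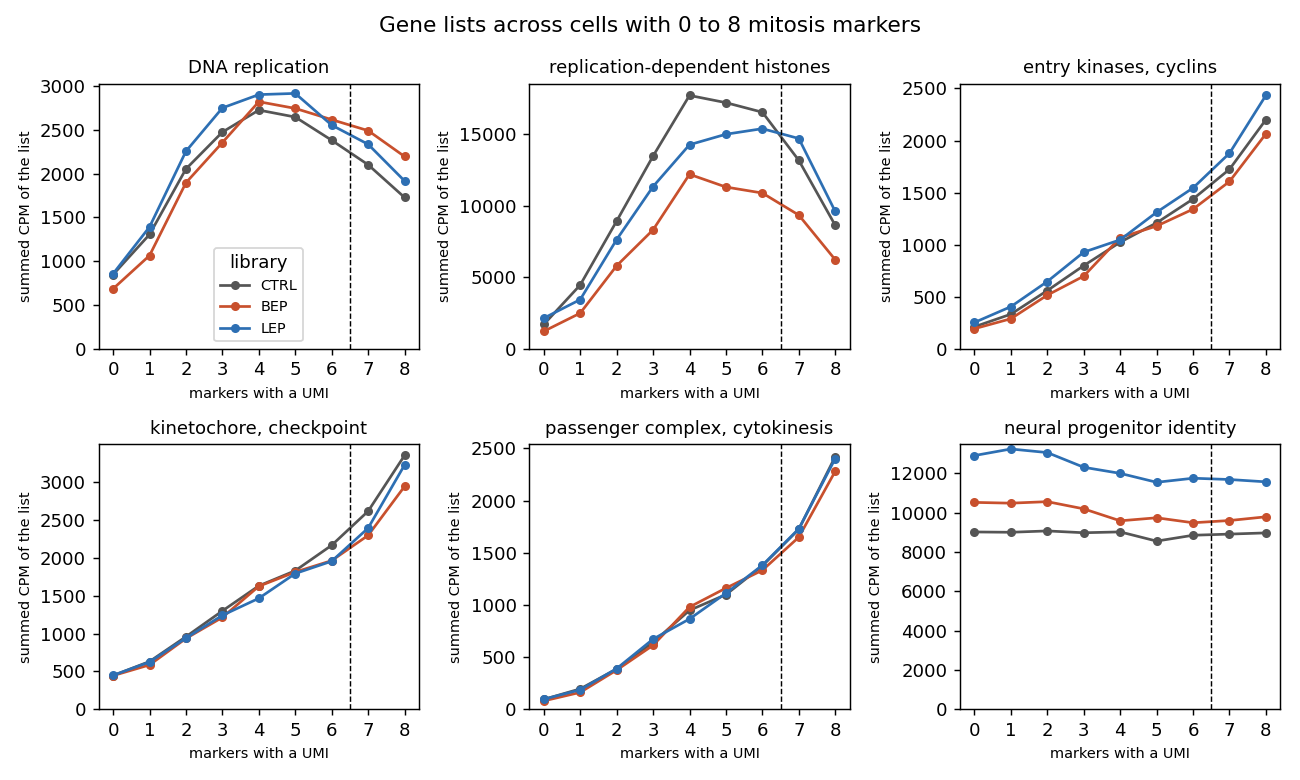
Each panel gives the summed CPM of a gene list (vertical axis, linear) in cells with 0 to 8 mitosis markers (horizontal axis) for each library, and the dashed line marks the rule. DNA replication genes and histones peaked below the rule, at 4 to 6 markers, while the 3 mitosis lists were highest at 8 and the neural progenitor list went from 9025, 10529 and 12911 CPM at 0 markers to 8978, 9796 and 11574 CPM at 8 in CTRL, BEP and LEP.

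Mitotic cells carried the progenitor programme at about the level of the other cells. The summed level of 20 neural progenitor genes was 8955, 9740 and 11608 CPM in mitotic cells of CTRL, BEP and LEP and 8961, 10173 and 12697 CPM in the others, with list medians of 0.27, 0.02 and 0.01. Nes, which encodes the filament nestin, stood at 338, 489 and 294 CPM against 322, 489 and 297 CPM. Lists of oligodendrocyte and astrocyte markers had medians below 0. The 3 measured oligodendrocyte markers of a list of 8 had medians of -0.83, -1.16 and -1.30. With cells thinned to 8000 UMIs these were -0.30, -1.11 and -1.89. Mag was at 0 in CTRL and LEP and Mog in CTRL and BEP mitotic cells. The 9 measured astrocyte markers of 11 had medians of -0.27, -0.27 and -0.66, with 3 of the 9 higher in CTRL and 3 in BEP. Ependymal markers went the other way, with summed levels of 22.9, 37.5 and 25.8 CPM against 16.6, 29.8 and 17.4 CPM in other cells. The median of the 6 measured oligodendrocyte precursor markers of 8 was -0.43, -0.75 and -0.66, but 0.28, 0.19 and -0.29 at 8000 UMIs per cell. That setting also left out cells under 8000 UMIs. Cells with at least 4 of the 8 precursor markers had medians of 6096 UMIs in CTRL and 7986 in BEP. The sign in CTRL and BEP thus differed between the settings, and the reason was not tested.

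Cells with at least 4 of 8 oligodendrocyte precursor markers made up 4.19% of mitotic cells in CTRL (3.12 to 5.50), 5.20% in BEP (4.14 to 6.43) and 8.51% in LEP (6.97 to 10.3), against 5.75%, 5.49% and 11.2% of other cells. With mitotic cells as called before thinning, these shares after thinning to 3000 UMIs were 0.428%, 0.390% and 0.782% against 2.05%, 1.73% and 4.12%. The class is a range on a count of detected markers, and 29, 49 and 41 mitotic cells lay exactly at 4 markers. Cells with at least 5 of 11 astrocyte markers made up 16.9%, 28.5% and 37.8% of mitotic cells against 10.8%, 16.7% and 31.2% of others, but 0.257%, 0.715% and 1.74% against 1.24%, 1.40% and 6.12% after thinning. The summed astrocyte markers were 447, 510 and 668 CPM in mitotic and 540, 617 and 1250 CPM in other cells, so no order is read from the unthinned astrocyte shares.

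Bulk electroporation was compared with control inside mitotic cells to ask how these cells stood after it. The levels that differed most were those of interferon response genes. Isg15, a ubiquitin-like protein induced by interferon, stood at 0.869 CPM in CTRL (14 UMIs), 264 CPM in BEP and 2.30 CPM in LEP mitotic cells. Cxcl10, a chemokine, stood at 4.47, 678 and 4.31 CPM. Rsad2, the antiviral enzyme viperin, stood at 1.12, 149 and 0.294 CPM. BEP lay far above the other libraries, whose levels were near each other for Cxcl10. The log2 ratios of BEP over CTRL, with 1 CPM added to each level, were 7.15, 6.95 and 6.14, and without it the counting intervals were 7.50 to 9.12, 6.91 to 7.60 and 6.39 to 7.81. All 14 measured genes of a list of 21 were at least 2-fold higher in BEP, with a median log2 ratio of 4.70, against 0.334% of the 5685 genes of at least 20 CPM. Ccl5 and Oasl1 had 0 UMIs in CTRL mitotic cells, and against a floor of 3 UMIs in that library they were at least 99.4-fold and 389-fold higher. With these at their bound the list median was 4.89, and thinned to 8000 UMIs per cell it was 4.09, with 11 of the 14 at least 2-fold higher. Most of these genes passed the level minimum through BEP alone.

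Isg15 UMIs were found in 39.0% of BEP mitotic cells and in 23.3% of other BEP cells, at median depths of 16629 and 10477 UMIs. With mitotic cells as called before thinning, the shares after thinning to 3000 UMIs were 21.1% and 13.7%. For Cxcl10 they were 57.6% and 41.0%, and 35.0% and 26.5% after thinning. In CTRL and LEP mitotic cells the Isg15 shares were 0.513% and 1.74%. Free RNA of BEP held Isg15 at 114 CPM and Cxcl10 at 393 CPM, below both cell groups. In CTRL and LEP free RNA held Cxcl10 at 29.4 and 33.2 CPM, above both cell groups, and the part of free RNA in the UMIs of these cells was not tested. The level of Isg15 was 264 CPM in mitotic and 159.5 CPM in other BEP cells, and Ifit1, another interferon-induced gene, stood at 99.6 and 109 CPM. The median log2 ratio of mitotic to other cells over the list was 0.42 in BEP but -0.22 with cells thinned to 8000 UMIs. Its direction thus differed between the settings, of which the thinned one also left out shallower cells.

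Counting interferon genes with all others, 19 genes (0.334%) stood 2-fold or more above CTRL in BEP mitotic cells, and 25 (0.44%) stood that far below. The higher count was 8 without cells over 25000 UMIs and 8 at equal depth. Lmna, which encodes the nuclear lamins A and C, stood at 36.6 CPM in CTRL, 120.2 in BEP and 47.8 in LEP (log2 ratio of BEP over CTRL 1.69, 1.59 to 1.84, and 1.29 at equal depth). Anxa2, a membrane-binding annexin, stood at 35.7, 113 and 69.7 CPM (1.64). Tnfrsf12a, the receptor of the cytokine TWEAK, stood at 66.9, 152 and 59.8 CPM (1.17, and 0.81 at equal depth). For Lmna and Tnfrsf12a BEP was the high library, while Anxa2 was higher in both treated libraries than in CTRL. The linker histone gene H1f0 stood at 105, 204 and 93.6 CPM (0.95, and 0.46 at equal depth).

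The genes lowest in BEP relative to CTRL included Ddit3, Id2 and Hes5 and several genes of sterol synthesis. Ddit3, the stress factor CHOP, stood at 181 CPM in CTRL, 46.6 in BEP and 14.99 in LEP mitotic cells. The annotation holds another, overlapping entry with this symbol, and the entry with more UMIs was used throughout. Id2, an inhibitor of differentiation factors, stood at 176, 46.3 and 186 CPM, and Hes5, a Notch target, at 113, 31.7 and 186 CPM. For Id2 and Hes5 only BEP was low, with log2 ratios to CTRL of -1.90 (-2.02 to -1.83) and -1.81 (-1.95 to -1.73). Of 19 cholesterol synthesis genes 18 were lower in BEP than in CTRL and 6 at least 2-fold (median -0.80), where 46.5% of all genes were lower. Msmo1, a sterol oxidase, stood at 274, 103 and 173 CPM in CTRL, BEP and LEP (-1.40), and Insig1, a sterol sensor, at 84.8, 31.9 and 48.4 CPM (-1.38). Of 20 genes of the integrated stress response, which Atf4 drives, 17 were lower (median -0.28, and -0.63 at equal depth) and 5 at least 2-fold. Of 16 measured immediate early genes 12 were lower (median -0.61), and of 11 small nucleolar RNA host genes 9 (median -0.46), with Snhg1 at 375, 129 and 141 CPM.

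Cells of every library were chosen by mitosis transcripts, so levels of the division machinery among them are tied to the rule and are a description. In BEP over CTRL the median log2 ratios were -0.05 for entry kinases and cyclins, -0.12 for kinetochore genes and -0.17 for spindle genes. They were -0.02 for the passenger complex and -0.21 for condensation genes (8 of 11 lower, where 46.5% of all genes were). At equal depth they were 0.07, 0.09, 0.07, 0.12 and -0.02, so the sign of the first 4 differed between the settings. The equal-depth setting also left out shallower cells, and the reason for the difference was not tested. Smc4, a condensin subunit, stood at 455, 313 and 344 CPM in CTRL, BEP and LEP, and Ccnf, cyclin F, at 50.8, 73.5 and 76.4 CPM, so CTRL stood apart in both. Mybl2 was the single entry gene at least 2-fold higher in BEP, at 13.3, 28.6 and 18.9 CPM (log2 ratio 1.05, and 0.91 at equal depth). Of 35 DNA replication genes 32 were higher in BEP than in CTRL mitotic cells, where 53.5% of all genes were, with a median of 0.36 against -0.03 in other cells. At equal depth the median was 0.22. Ccne2 stood at 3.54, 13.1 and 11.1 CPM (1.64), Ung, a DNA repair glycosylase, at 2.67, 7.46 and 6.08 CPM (1.20) and Ccne1, cyclin E1, at 13.1, 27.7 and 21.8 CPM (1.02). At equal depth their ratios were 0.81, 0.40 and 0.89. Replication-dependent histones had a median of -0.27, and -0.01 at equal depth, with Hist1h3c at 151, 61.1 and 89.0 CPM.

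Localized electroporation was compared with control in the same way. Of the gene lists, the median farthest from 0 was that of the integrated stress response, of which 20 of 20 genes were lower in LEP and 14 at least 2-fold, with a median log2 ratio of -1.48 (-1.47 at equal depth). In all, 32 genes (0.563%) stood 2-fold or more above CTRL and 42 (0.739%) that far below, and 46.1% of genes were lower. Ddit3 was the lowest of the genes of at least 50 CPM, with a log2 ratio of -3.51 (-3.77 to -3.42). Atf4, the factor that drives this response, stood at 306 CPM in CTRL, 186 in BEP and 105 in LEP (-1.54). Mthfd2, a mitochondrial folate enzyme, stood at 228, 119 and 46.5 CPM (-2.27), and Asns, asparagine synthetase, at 183, 164 and 67.3 CPM (-1.43). Chac1, which degrades glutathione, stood at 59.6, 14.97 and 1.08 CPM. LEP was the lowest and CTRL the highest library for each of these 5 genes. The amino acid transporters Slc7a1 and Slc3a2 had log2 ratios of -1.72 and -1.57. The RNA host genes had a median of -0.66, with Snhg12 at 183, 92.1 and 42.5 CPM.

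The genes highest in LEP over CTRL mitotic cells were led by Pdlim4, an actin-linked adaptor. It stood at 57.6 CPM in CTRL, 77.6 in BEP and 235 in LEP, a log2 ratio of 2.01 (1.93 to 2.13), against 1.21 in other cells. Hmox1, heme oxygenase and a target of the factor NRF2, stood at 53.7, 78.6 and 176 CPM (1.69), and 9 of 10 measured NRF2 targets were higher in LEP (median 0.50, where 53.9% of all genes were higher). Apoe had a log2 ratio of 1.32 (1.24 to 1.42), against 2.02 in other cells. Mat2a, which makes S-adenosylmethionine, stood at 132, 195 and 308 CPM, and Cd9, a tetraspanin, at 124, 149.6 and 263 CPM. In these 5 genes LEP was the high library and BEP lay between. Id1 and Id3, inhibitors of differentiation factors, stood at 135, 74.6 and 278 CPM and at 352, 315 and 641 CPM, so LEP was high and BEP low. The oligodendrocyte, precursor and astrocyte marker lists also had medians above 0 in LEP over CTRL mitotic cells. In other cells their medians were 1.19, 0.64 and 0.66. The 3 measured oligodendrocyte markers had a median of 1.08, with 2 at least 2-fold higher, but 0.24 and none at equal depth. Precursor markers had a median of 0.43 with 4 of 5 higher, and at equal depth 0.33 with 3 of 5 higher. Astrocyte markers had a median of 0.41 with 6 of 9 higher, 3 of them at least 2-fold, and 0.43 at equal depth. The interferon list had a median of 0.26, and 0.03 at equal depth.

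The mitosis lists of LEP over CTRL are likewise tied to the choice of cells. Their medians were 0.00 for entry kinases and cyclins, -0.05 for kinetochore genes and -0.15 for spindle genes (19 of 23 lower). They were -0.01 for the passenger complex and -0.18 for condensation genes (9 of 11 lower). Over all genes tested 46.1% were lower in LEP. With cells thinned to 8000 UMIs the medians, in the same order, were -0.015, -0.02, -0.10 (14 of 23 lower), 0.08 and -0.12 (9 of 11 lower). Top2a stood at 723, 551 and 529 CPM in CTRL, BEP and LEP, highest in CTRL, and Cdk1 at 372, 359 and 452 CPM, highest in LEP. In other cells of LEP these lists had medians against CTRL of -0.19, -0.24, -0.33, -0.21 and -0.31.

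**Figure D4:**
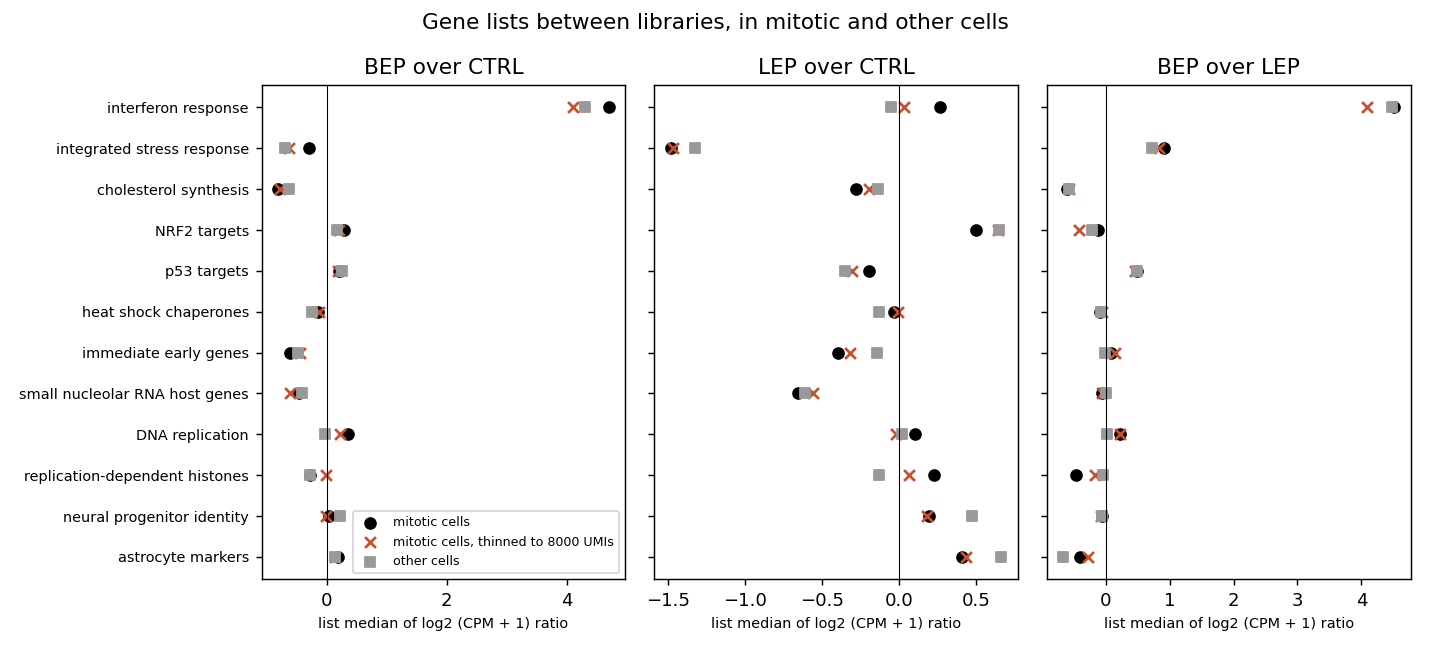
Each point is the median log2 (CPM + 1) ratio of a gene list between 2 libraries (horizontal axis) for 12 lists (vertical axis), in mitotic cells, in mitotic cells thinned to 8000 UMIs and in other cells. Interferon response stood at 4.70 and 4.51 in mitotic cells in the comparisons of BEP with CTRL and LEP, and the integrated stress response at -1.48 in LEP over CTRL.

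BEP was also set directly against LEP, since both comparisons above share the control library. There were 47 genes (0.827%) with 2-fold or more in favour of BEP and 18 (0.317%) in favour of LEP. The interferon list had a median of 4.51. All 20 stress response genes were higher in BEP (median 0.92, where 47.5% of all genes were higher), 9 at least 2-fold. At equal depth 18 of the 20 were higher (median 0.83). Acta2, smooth muscle actin, stood at 288 CPM in BEP and 110.2 CPM in LEP (log2 ratio 1.38), and Rab3b, a vesicle GTPase, at 262 and 100.3 CPM (1.37). Lower in BEP were Hes5 (-2.52, -2.66 to -2.45), Id2 (-1.98), Id1 (-1.88), Pdlim4 (-1.59) and Hmox1 (-1.15). All 19 cholesterol genes were lower in BEP (median -0.60), where 52.5% of all genes were. The 3 measured oligodendrocyte markers were lower in BEP (median -1.42, and -0.73 at equal depth), as were 5 of 5 precursor markers (median -0.47, and 2 of 5 higher at equal depth). Of 17 measured p53 targets 15 were higher in BEP (median 0.49), with Cdkn1a, the kinase inhibitor p21, at 571, 824 and 461 CPM in CTRL, BEP and LEP. DNA replication genes had a median of 0.23, with 31 of 35 higher, and histones of -0.46 (-0.17 at equal depth).

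**Figure D5:**
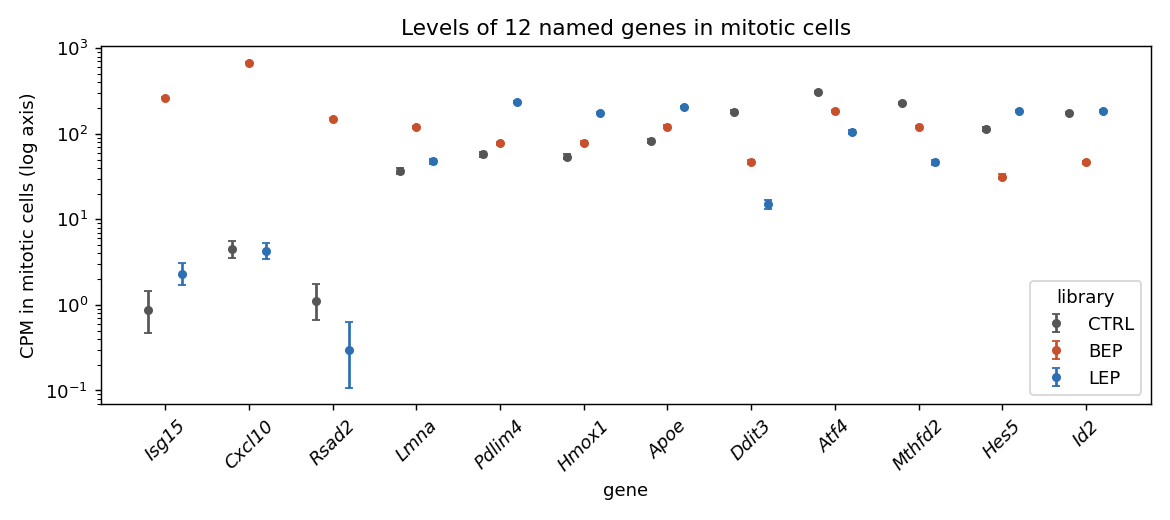
Points give the level in mitotic cells of 12 named genes (horizontal axis) in each library on a logarithmic CPM axis (vertical), with exact 95% Poisson intervals that cover counting error only. Isg15, Cxcl10 and Rsad2 were high in BEP alone, Ddit3, Atf4 and Mthfd2 stood highest in CTRL and lowest in LEP, and Hes5 and Id2 were low in BEP alone.

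Counts of genes past 2-fold were also taken in the other cells. They were 20 higher (0.352%) and 24 lower (0.422%) in BEP over CTRL, 44 (0.774%) and 46 (0.809%) in LEP over CTRL, and 36 (0.633%) and 19 (0.334%) in BEP over LEP. The log2 ratio of Isg15 in BEP over CTRL was larger by 1.32 in mitotic cells, but rests on few UMIs in CTRL. Mcm5, a subunit of the replicative helicase, had a ratio of 0.49 in mitotic and -0.13 in other cells, a difference of 0.62, and at equal depth 0.33 in mitotic cells. Lmna had 1.69 and 1.16. Kdm5b, a histone demethylase, had -0.51 and 0.25, the largest difference the other way at -0.76. In LEP over CTRL, Pdlim4 had 2.01 and 1.21, and Hist1h3c -0.76 and -1.56. None of these differences was tested, because cells of 1 library are not replicates.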

How the data were processed

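The labels describe 1 library a group, made with 10x 3' chemistry (version 3) from neural progenitors 4 h after treatment. The deposited counts are raw UMI counts per gene and barcode made by the authors with Cell Ranger 4 per the file headers, with no cell filter. The submitters' processing notes name Cell Ranger 6, Seurat 4.0.4 and GRCm38. The annotation release is not given in the sources used here.

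From these counts, cells and mitotic cells were taken by the stated rules, and UMIs were summed per library and cell set. Ratios are log2 of CPM with 1 CPM added to each level. Free RNA is the sum over barcodes of 10 to 100 UMIs. Thinning draws a fixed number of UMIs from each cell. No doublet caller was run. Some named genes are not reported here. Named genes were the highest 8 and lowest 8 of each comparison at a mean of at least 50 CPM, the 20 leading and 15 lowest against other cells, up to 4 per list and the 5 highest and lowest differences, without the rule genes, unnamed loci, ribosomal protein and mitochondrial genes. Ccl5 and genes named at 0 were chosen after their values were seen. Mitotic cells and gene lists were chosen with earlier results of these data known. The scripts were tested on simulated data. Python 3.11.15, numpy 2.4.6, pandas 2.3.3, scipy 1.17.1 and matplotlib 3.10.9 were used.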

Additional observations from a re-analysis of the deposited data

Results flagged for a closer look

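For 8 gene comparisons the log2 ratio between libraries had opposite signs in mitotic and other cells, with counting intervals that did not include 0, and differed by at least 0.5. None of these differences was tested, since each group had 1 library. In BEP over CTRL, Kdm5b, a histone demethylase, stood at -0.51 in mitotic and 0.25 in other cells. Mcm5, of the replicative helicase, stood at 0.49 and -0.13. In BEP over LEP, the kinetochore gene Cenpf stood at -0.22 in mitotic and 0.51 in other cells, and Knstrn, a spindle and kinetochore protein, at -0.40 and 0.24. Prc1 of the central spindle stood at -0.14 and 0.41, and Cdca3, a trigger of mitotic entry, at -0.11 and 0.51. The histone gene Hist1h3c stood at -0.54 and 0.20, and Hells, a chromatin remodeller, at 0.17 and -0.42. Other cells include those with 6 or fewer of the 8 rule genes, so their level of mitosis genes is set in part by the rule.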

How the results depend on the processing

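No paired analysis was possible because each group had 1 library, so the groups share fewer than 2 replicate numbers. The share of mitotic cells differed with the rule and with the UMIs of the cells. In CTRL, BEP and LEP it was 26.1%, 35.6% and 23.4% with at least 6 genes, 11.5%, 18.2% and 12.3% with all 8, 22.5%, 30.8% and 19.6% among cells of at least 6000 UMIs, and 2.40%, 2.53% and 2.00% thinned to 3000 UMIs. Without cells over 25000 UMIs it was 23.6% in BEP and 16.9% in LEP. Thinning to 8000 UMIs (17.3%, 19.0% and 13.2%) and keeping cells of 8000 to 20000 UMIs (24.0% in CTRL) were chosen after seeing the data. Counts of genes past 2-fold, higher and lower, in BEP over CTRL, LEP over CTRL and BEP over LEP were 46, 38, 57, 66, 84 and 32 at a mean of at least 10 CPM, 7, 13, 12, 20, 22 and 8 at 50 CPM, and 163, 63, 188, 125, 200 and 82 with no minimum. The higher count of BEP over CTRL was 12 with a pseudocount of 5 CPM, 8 without cells over 25000 UMIs, 12 with each cell weighted equally, 8 thinned to 8000 UMIs and 7 at 8000 to 20000 UMIs. That of BEP over LEP was 26 without cells over 25000 UMIs, 31 with equal weights and 23 at 8000 to 20000 UMIs. The causes of these changes were not tested. Of 331 gene ratios, 216 moved beyond their counting interval when thinned to 8000 UMIs and 177 without cells over 25000 UMIs.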
